A study of Mus musculus with 30 samples.

Results

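Joint interzone genes are described here as 7 genes chosen by name: *Gdf5*, *Gdf6*, *Bmpr1b*, *Erg*, *Wnt9a*, *Osr1* and *Osr2*. All 7 were found among the 50833 genes of the count table, of which 20569 are protein-coding. RNA was sequenced from forelimb buds of wild-type mouse embryos on a Swiss Albino background. Pregnant females were injected at embryonic stage E10.5 either with DMSO in buffered saline, which serves as the wild-type control, or with C59 (Wnt-C59). The C59 stock in DMSO was diluted in buffered saline with methylcellulose, a detergent and DMSO. The injected vehicles therefore differed between the treatments, and the part of this difference was not tested. Buds were collected 1, 6, 12, 18 or 24 h later, which gives 10 groups of 3 replicates and 30 libraries. C59 blocks porcupine, the acyltransferase that modifies newly made WNT proteins. The paper states that C59 acts on canonical as well as non-canonical WNT signaling. Because it was given to the mother, its action is not limited to the limb bud. Each replicate is RNA from 1 pair of forelimb buds.

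Synovial joints arise where a continuous cartilage condensation is interrupted by a layer of flattened cells, the interzone. *Gdf5* marks these cells and their descendants form articular cartilage, ligaments and the joint lining. GDF5 and GDF6 belong to the BMP family and signal through type I receptors, foremost BMPR1B, which is also needed in the condensing digit cartilage. At the limb bud stages sampled here the digit joints have not yet formed, and several of these genes are also active in other cells, *Bmpr1b* in condensing mesenchyme, *Erg* in endothelium, and *Osr1* and *Osr2* in connective tissue progenitors. Before the digit joints appear, the paper shows *Gdf5* RNA in proximal interdigit tissue, so its level here is not a measure of interzone cells.

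The libraries held 18188636 to 38974885 counts each. No replicate was a copy of another: over 30 pairs within groups, chi-square divided by its degrees of freedom ranged from 3.49 to 46.6, where sampling noise alone gives values near 1. The forelimb gene *Tbx5* stood between 188 and 330 CPM in every group (CPM, counts scaled to the TMM-normalised library size), while the summed level of the hindlimb genes *Pitx1* and *Tbx4* reached at most 23.7 CPM. *Axin2*, a direct readout of canonical WNT signaling, fell after C59 by 1.97 on the log2 scale at 6 h and by 1.45 at 12 h. It was slightly lower already at 1 h (log2 fold change -0.19, edgeR adjusted p 0.0282). Its log2 fold change was -0.16 at 18 h and -0.08 at 24 h, neither past the threshold. At 18 h every C59 library was still below every DMSO library. The summed FPKM of 4 Y-linked genes ran from 19.8 to 33.2 in the C59 libraries at 6 h and was 0 in all 3 DMSO libraries. At 1 h it ran from 21.3 to 38.2 in C59 libraries and was 7.66, 9.03 and 0.0469 in DMSO libraries. The first pair of these values is intermediate, since every other library was either at 0.417 or below or at 18.8 or above, and its cause was not tested. Treatment and embryo sex therefore cannot be told apart at 1 h and 6 h, whereas at 12 h, 18 h and 24 h libraries of high and low level overlapped between the treatments. Every comparison that uses the 6 h libraries shares this limit.

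Differences were tested with edgeR's quasi-likelihood test on each time point's own 6 libraries. All adjusted p-values are from this test with Benjamini-Hochberg adjustment over all genes tested, errors of log2 fold changes are standard errors, and a gene is said to have risen or fallen where its adjusted p was below 0.05. A log2 fold change beyond 1 is named as a second threshold. Expression was measured in whole limb buds, so more cells of a type and more RNA per cell cannot be told apart.

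In DMSO buds the joint interzone genes were higher at 24 h than at 1 h, *Gdf5* by the largest fold, with different courses between these times. All 7 genes passed the threshold upward in edgeR, 6 of them with all 30 libraries in the fit, and for each of them the 3 later libraries lay above the 3 earlier ones. Of the 13580 genes tested in this comparison 59.3% passed the threshold, 30.2% in the upward direction, and in 64.8% the groups did not overlap. The change was past both thresholds for 4 of the 7, *Gdf5*, *Osr1*, *Wnt9a* and *Erg*, against 12.0% of all genes.

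*Gdf5* (growth differentiation factor 5, ENSMUSG00000038259) lies on the minus strand of chromosome 2, 155941023 to 155945367 (all positions are mm10, GENCODE). It had 1.97, 1.81 and 1.67 CPM in the DMSO libraries at 1 h and 16.3, 17.1 and 18.3 CPM in those at 24 h. This increase of 9.50-fold (log2 fold change 3.25 ± 0.13, edgeR adjusted p 5.25e-11) was the largest of the 7. *Osr1* (ENSMUSG00000048387, plus strand of chromosome 12, 9570116 to 9581500), a zinc-finger factor of connective tissue progenitors, had 34.1, 32.4 and 34.1 CPM at 1 h and 114, 123 and 116 CPM at 24 h. It rose 3.51-fold, with a log2 fold change of 1.81 ± 0.05. *Wnt9a* (ENSMUSG00000000126, plus strand of chromosome 11, 59306928 to 59333552), a WNT ligand made in joint interzones, went from 2.14, 2.16 and 3.24 CPM to 9.42, 7.69 and 7.69 CPM, a log2 fold change of 1.69 ± 0.18.

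*Erg* (ENSMUSG00000040732, minus strand of chromosome 16, 95359169 to 95586593) encodes an ETS factor of endothelium and of articular cartilage precursors. Its DMSO libraries had 23.7, 20.8 and 24.0 CPM at 1 h and 51.0, 53.0 and 53.5 CPM at 24 h, a log2 fold change of 1.20 ± 0.07. *Bmpr1b* (ENSMUSG00000052430, minus strand of chromosome 3, 141837136 to 142169425) rose from 19.3, 27.7 and 21.8 CPM to 45.5, 43.0 and 40.0 CPM, a log2 fold change of 0.90 ± 0.10. *Gdf6* (ENSMUSG00000051279, plus strand of chromosome 4, 9844372 to 9862345), the closest relative of *Gdf5* in the set, rose late. Its DMSO group means stayed between 5.99 and 7.85 CPM up to 18 h and reached 12.7 CPM at 24 h, so that the log2 fold change from 1 h to 24 h was 0.81 ± 0.12.

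*Osr2* (ENSMUSG00000022330, plus strand of chromosome 15, 35296098 to 35303305), the paralog of *Osr1*, had another course. It was highest in DMSO buds at 6 h, with 45.7, 39.1 and 44.1 CPM, and had come down to 33.2, 29.4 and 32.6 CPM by 24 h. Compared with 1 h (23.5, 28.1 and 27.1 CPM) the level at 24 h was only slightly higher, with a log2 fold change of 0.27 ± 0.08 (edgeR adjusted p 0.00964). With all 30 libraries in the edgeR fit *Osr2* no longer passed (adjusted p 0.0871).

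**Figure D1:**
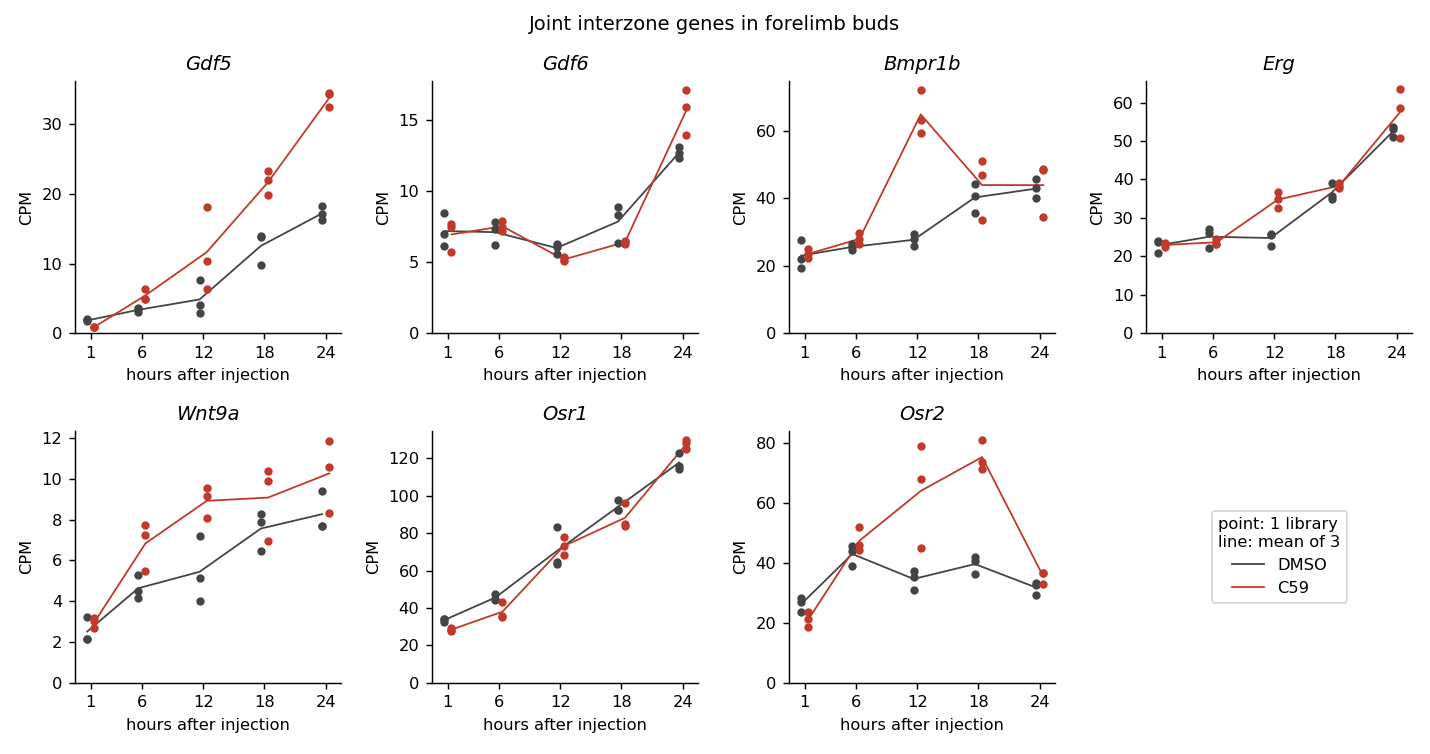
Level of each joint interzone gene in CPM on a linear axis against hours after injection, for DMSO (grey) and C59 (red) forelimb buds, where points are libraries, lines join the means of 3, and the treatments are shifted sideways for legibility. *Gdf5* in C59 buds separates from DMSO and reaches 32.5 to 34.5 CPM at 24 h, *Bmpr1b* peaks at 12 h (59.3 to 72.1 CPM), and *Osr2* stays high at 12 h and 18 h and is back near the DMSO libraries at 24 h.

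The order of the 7 genes was read from FPKM, which corrects for transcript length. In DMSO buds at 1 h it was *Osr1* (12.5 FPKM), *Osr2* (11.7), *Erg* (6.42), *Bmpr1b* (3.78), *Gdf6* (1.52), *Gdf5* (0.957) and *Wnt9a* (0.560), and only *Osr1* and *Osr2* overlapped in their libraries. By 24 h *Osr1* led with 46.4 FPKM, *Erg* (14.9) and *Osr2* (14.8) could not be separated, and *Gdf5* followed with 12.8 FPKM. *Bmpr1b* (7.60), *Gdf6* (2.82) and *Wnt9a* (1.93) came last. C59 changed this order: at 24 h *Gdf5* was second with 24.8 FPKM, and its 3 libraries lay above those of *Erg* and *Osr2*.

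The question for the C59 time course was which of these genes respond to the loss of WNT ligands and for how long. At 1 h none of the 7 passed the threshold in edgeR (2.75% of the 13076 genes tested did), none did in DESeq2 either, and 3 had an unadjusted p below 0.05. These were *Gdf5*, *Osr1* and *Osr2*, which were also the 3 whose groups did not overlap (22.0% of all genes). *Gdf5* had 0.836, 0.873 and 0.947 CPM in C59 libraries, all below the DMSO libraries (log2 fold change -1.03 ± 0.27, edgeR adjusted p 0.0588). This value rests on 17 to 19 counts per C59 library and 37 to 47 per DMSO library, and without a filter on low counts its adjusted p was 0.0465. The log2 fold changes of *Osr1* and *Osr2* were -0.24 and -0.31.

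At 6 h 3 of the 7 genes passed the threshold, the ligand genes *Gdf5* and *Wnt9a* upward and *Osr1* downward. Of all 13100 genes tested 19.6% passed, 8.20% upward and 11.4% downward, and no joint interzone gene was past both thresholds (1.17% of all genes). *Gdf5* had 6.39, 4.95 and 4.91 CPM in C59 against 3.57, 2.97 and 3.48 CPM in DMSO libraries, a log2 fold change of 0.69 ± 0.18 (edgeR adjusted p 0.0135). *Wnt9a* had 7.25, 7.75 and 5.50 CPM against 4.15, 5.26 and 4.49 CPM (log2 fold change 0.56 ± 0.17, edgeR adjusted p 0.0322). *Osr1* fell to 35.6, 43.3 and 35.3 CPM against 47.5, 44.8 and 44.5 CPM (log2 fold change -0.27 ± 0.08, edgeR adjusted p 0.0264).

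In each of these 3 genes the groups did not overlap, as in 36.8% of all genes. The 3 calls at 6 h were not firm: without C59 replicate 1 none of them was left, without DMSO replicate 1 only *Gdf5* was, and a fit on all 30 libraries kept *Osr1* alone. *Bmpr1b*, *Gdf6*, *Erg* and *Osr2* had log2 fold changes between -0.10 and 0.14 at this time.

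The widest response came at 12 h, when 5 of the 7 genes were higher in C59 buds and none was lower. Of all 13324 genes tested 47.5% passed the threshold and 22.0% did so upward. The median log2 fold change of the 7 was 0.72, beside 0.02 for all genes, and 2 of them, *Gdf5* and *Bmpr1b*, were past both thresholds, as were 4.95% of all genes. In 5 of the 7 genes the groups did not overlap, beside 57.1% of all genes.

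*Bmpr1b*, the type I receptor for GDF5, had 59.3, 63.1 and 72.1 CPM in C59 libraries at 12 h and 27.8, 29.4 and 25.8 CPM in DMSO libraries. The 3 C59 libraries were all higher than any other library of the time course for this gene. The difference was 2.35-fold (log2 fold change 1.23 ± 0.08, edgeR adjusted p 1.62e-06). No such difference was present at 6 h, where C59 libraries had 29.6, 26.5 and 27.8 CPM and DMSO libraries 24.7, 26.5 and 25.4 CPM (log2 fold change 0.13 ± 0.07), nor at 1 h (0.04 ± 0.11). At 18 h the C59 libraries had 51.2, 47.0 and 33.5 CPM and overlapped with the DMSO libraries at 35.6, 44.3 and 40.8 CPM (0.14 ± 0.16), and at 24 h the log2 fold change was 0.04 ± 0.11. The change of the C59 effect itself was tested as an interaction on 12 libraries. It was 1.10 ± 0.11 from 6 h to 12 h (edgeR adjusted p 7.74e-06) and -1.09 ± 0.19 from 12 h to 18 h (edgeR adjusted p 0.00313).

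Among 12 other genes listed beside it as GDF and BMP receptors and SMADs, inhibitory SMADs included, 2 rose and 2 fell at 12 h, when 47.5% of all genes passed. None was past both thresholds. The highest value was that of the type II receptor *Bmpr2* (log2 fold change 0.24) and the lowest that of *Ror2* (-0.21). *Bmpr1a*, the other type I receptor of this pathway, had 252 to 266 CPM in C59 and 244 to 249 CPM in DMSO libraries, a log2 fold change of 0.06 that did not pass. The median of the 12 was 0.01, beside 0.02 for all genes. At 1 h and 18 h none of the 12 passed in edgeR, at 6 h 2 fell, and at 24 h 1 fell.

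*Gdf5* itself was higher in C59 buds at 12 h but with a wide spread. The C59 libraries had 18.1, 10.4 and 6.39 CPM and the DMSO libraries 3.99, 7.57 and 2.94 CPM, so the lowest C59 library lay below the highest DMSO library. The log2 fold change was 1.26 ± 0.38 (edgeR adjusted p 0.0203). It was not past the threshold in DESeq2 (adjusted p 0.0597), without C59 replicate 1 (log2 fold change 0.82), without DMSO replicate 1 (1.13) or without DMSO replicate 3 (1.01). The DMSO library that was highest for *Gdf5*, replicate 2, was also the highest of its group for *Gdf6*, *Bmpr1b*, *Erg*, *Wnt9a* and *Osr1*, and the lowest for *Osr2*. It had a summed Y-linked FPKM of 38.6, and C59 replicate 1, the highest C59 library for *Gdf5*, had 18.8. All other 12 h libraries had 0.417 or less. The part of embryo sex in the spread of *Gdf5* was not tested.

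*Gdf5* was still higher at 18 h and 24 h, when *Axin2* no longer passed the threshold. At 18 h C59 libraries had 21.9, 23.2 and 19.9 CPM against 14.0, 13.8 and 9.83 CPM in DMSO libraries, and the log2 fold change was 0.80 ± 0.15 (edgeR adjusted p 0.0163). At 24 h they had 34.5, 32.5 and 34.4 CPM against 16.3, 17.1 and 18.3 CPM, a 1.97-fold difference (log2 fold change 0.98 ± 0.08, edgeR adjusted p 4.65e-05). At both times every C59 library was above every DMSO library. Leaving out DMSO replicate 1, DMSO replicate 3 or C59 replicate 2 ended the call at 18 h (log2 fold changes 0.88, 0.67 and 0.75), whereas the call at 24 h was kept in every alternative. At 18 h, 2 of the 7 genes passed (*Gdf5* and *Osr2*, 7.08% of all 13413 genes tested) and at 24 h *Gdf5* alone (6.44% of 13675), with none past both thresholds at either time (1.29% and 0.819% of all genes). The groups did not overlap in 2 of the 7 genes at 18 h, beside 34.2% of all genes, and in 3 at 24 h, beside 27.7%. The interactions did not pass for *Gdf5* at any step (6 h to 12 h 0.56 ± 0.49, 12 h to 18 h -0.45 ± 0.46, 18 h to 24 h 0.17 ± 0.17), so a change of its effect among these times was not detected.

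An opposite-strand gene, *Gm15557*, shares 936 of the 2320 exonic bases of *Gdf5*. It had at most 4 counts in any library, but the strand of counting was not stated, and reads of the shared bases cannot be told apart.

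*Gdf6* did not follow *Gdf5*. At 12 h it had 5.12, 5.04 and 5.38 CPM in C59 and 6.09, 6.29 and 5.60 CPM in DMSO libraries, all 3 C59 libraries being lower, with a log2 fold change of -0.21 ± 0.14 (edgeR adjusted p 0.235). Its log2 fold change was -0.28 ± 0.16 at 18 h. At 24 h the C59 libraries, with 16.0, 14.0 and 17.1 CPM, were above the DMSO libraries, with 12.7, 13.1 and 12.4 CPM (0.31 ± 0.10, edgeR adjusted p 0.0964). The change of the C59 effect from 18 h to 24 h was 0.58 ± 0.18 (edgeR adjusted p 0.0726, DESeq2 adjusted p 0.0376).

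The FPKM ratio of *Gdf5* to *Gdf6* therefore moved with time and with treatment. In DMSO buds the mean ratio was 0.641 ± 0.125 (SD, n = 3) after 1 h, 1.27 ± 0.320 after 6 h and 2.64 ± 0.674 after 12 h, and it levelled off with 4.97 ± 0.199 at 18 h and 4.54 ± 0.451 at 24 h. In C59 buds it went from 0.400 ± 0.0319 after 1 h through 2.32 ± 0.404 after 6 h and 7.34 ± 3.995 after 12 h to a peak of 10.9 ± 0.822 at 18 h, and was 7.03 ± 0.409 at 24 h. It was lower in all 3 C59 libraries at 1 h and higher in all 3 from 6 h on. Each of these differences has an exact two-sided permutation p of 0.1, the smallest that 3 libraries against 3 allow, and 0.125 after adjustment over the 10 ratio tests made.

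*Wnt9a* was higher in C59 buds at 12 h as well, with 8.06, 9.54 and 9.15 CPM against 3.99, 7.18 and 5.15 CPM and no overlap (log2 fold change 0.72 ± 0.19, edgeR adjusted p 0.0102). At 18 h (0.27 ± 0.18) and 24 h (0.32 ± 0.14, edgeR adjusted p 0.213) the libraries overlapped and the test was not passed. No interaction passed for this gene, so its effect at 12 h is not shown to differ from that at 18 h.

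*Osr2* showed the second large response. C59 libraries had 78.9, 68.1 and 45.0 CPM at 12 h, against 35.4, 31.1 and 37.4 CPM in DMSO, and 71.3, 81.0 and 73.6 CPM at 18 h, against 41.9, 36.2 and 40.7 CPM. At both times the groups were separate. The log2 fold changes were 0.88 ± 0.17 at 12 h (edgeR adjusted p 0.00158) and 0.95 ± 0.10 at 18 h (edgeR adjusted p 0.00197). By 24 h the C59 level had come down to 32.9, 36.7 and 36.8 CPM, overlapping with DMSO (0.17 ± 0.08). The C59 effect increased by 0.74 ± 0.20 from 6 h to 12 h (edgeR adjusted p 0.0187) and decreased by 0.79 from 18 h to 24 h (SE 0.12, edgeR adjusted p 0.00222), while the step between, from 12 h to 18 h, was 0.07 ± 0.22.

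*Osr1* did not take part in this. At 12 h it had 73.0, 68.5 and 77.9 CPM in C59 and 63.4, 83.2 and 64.6 CPM in DMSO libraries (log2 fold change 0.06 ± 0.09). Without DMSO replicate 2 the log2 fold change was 0.18 (edgeR adjusted p 0.0445). At 18 h it was -0.07 ± 0.09 and at 24 h 0.12 ± 0.06, neither past the threshold. The FPKM ratio of *Osr2* to *Osr1* fell during normal development, from 0.940 ± 0.0944 (SD, n = 3) at 1 h and 1.11 ± 0.0787 at 6 h to 0.321 ± 0.0312 at 24 h. In C59 buds it was 1.49 ± 0.239 at 6 h, 1.07 ± 0.331 at 12 h and 1.00 ± 0.0195 at 18 h, above all DMSO libraries of the same time (exact permutation p 0.1 each, adjusted 0.125), and 0.331 ± 0.0285 at 24 h, overlapping with DMSO. The separation at 12 h was marginal, with 0.69093 in the lowest C59 library and 0.69087 in the highest DMSO library.

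**Figure D2:**
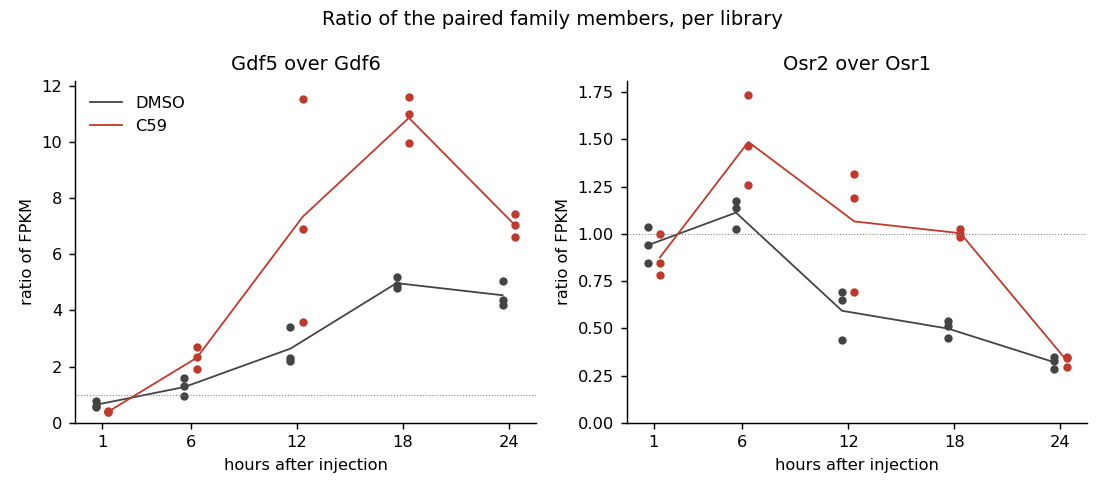
Ratio of FPKM values within a library for *Gdf5* over *Gdf6* and *Osr2* over *Osr1* on linear axes, against hours after injection, with DMSO in grey, C59 in red, points for libraries and lines through the means of 3 (the dotted line marks equal levels). The *Gdf5* to *Gdf6* ratio in C59 buds peaks at 18 h with a mean of 10.9, while the *Osr2* to *Osr1* ratio in C59 buds, 1.00 at 18 h, meets the DMSO value at 24 h.

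*Erg* had 34.9, 32.5 and 36.8 CPM in C59 libraries at 12 h and 25.7, 25.9 and 22.7 CPM in DMSO libraries, which did not overlap. The log2 fold change was 0.49 ± 0.08 (edgeR adjusted p 0.000443). It was -0.10 ± 0.08 at 6 h, 0.08 ± 0.09 at 18 h and 0.14 ± 0.08 at 24 h, with overlapping libraries. The effect increased by 0.58 ± 0.12 from 6 h to 12 h (edgeR adjusted p 0.00267). Its decrease from 12 h to 18 h (-0.40 ± 0.12, edgeR adjusted p 0.0439) was not past the threshold in the alternatives that used no filter, a replicate block or limma, nor when any of 11 of the 12 libraries was left out.

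Because *Erg* is also an endothelial gene, 13 endothelial genes were measured beside it. At 12 h 5 of the 13 were higher in C59 buds and none was lower, while of all genes 47.5% passed, 22.0% upward. The 13 had a median log2 fold change of 0.23 and the highest values in *Pecam1* (0.42) and *Cdh5* (0.41), adhesion molecules of endothelial cells. Their summed level was 617 to 689 CPM in C59 and 509 to 558 CPM in DMSO libraries, and none of the 13 was at 0. The part of endothelial RNA in the *Erg* difference at 12 h was not tested. During normal development the picture was another: from 1 h to 24 h in DMSO none of the 13 rose in edgeR and 7 fell (median log2 fold change -0.17), while *Erg* rose by 1.20 on the log2 scale. Of all genes 59.3% passed in that comparison, 30.2% upward.

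**Figure D3:**
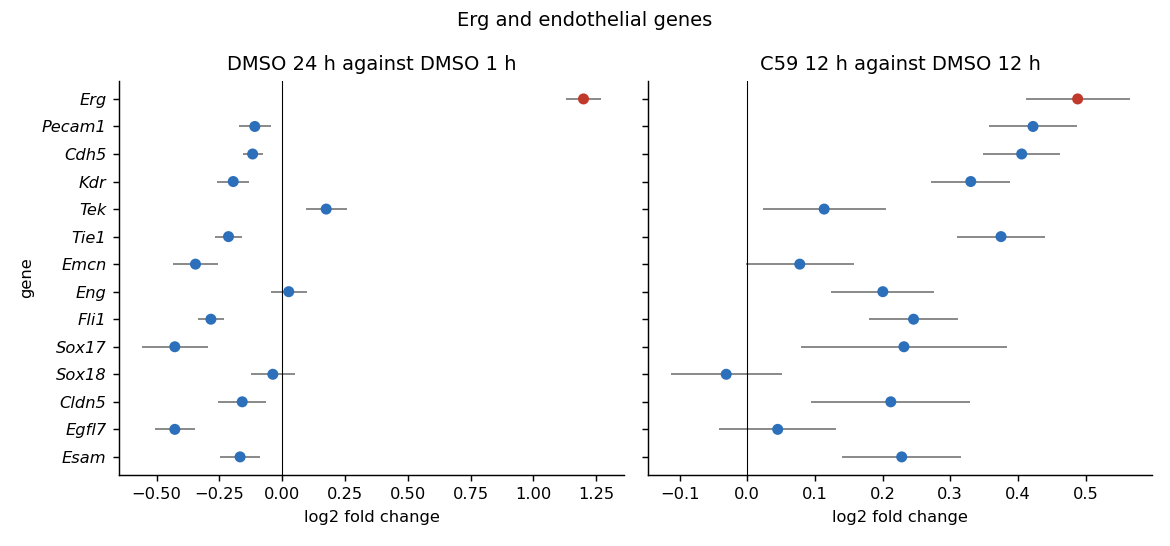
Log2 fold changes with standard errors for *Erg* (red) and 13 endothelial genes (blue), in DMSO buds at 24 h against 1 h (left) and in C59 against DMSO buds at 12 h (right), each on its own linear axis. In development *Erg*, at 1.20, lies apart from the endothelial genes, which span -0.43 to 0.17. At 12 h after C59 its value of 0.49 is above all 13 endothelial genes, which span -0.03 to 0.42, *Pecam1* and *Cdh5* being the nearest.

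**Figure D4:**
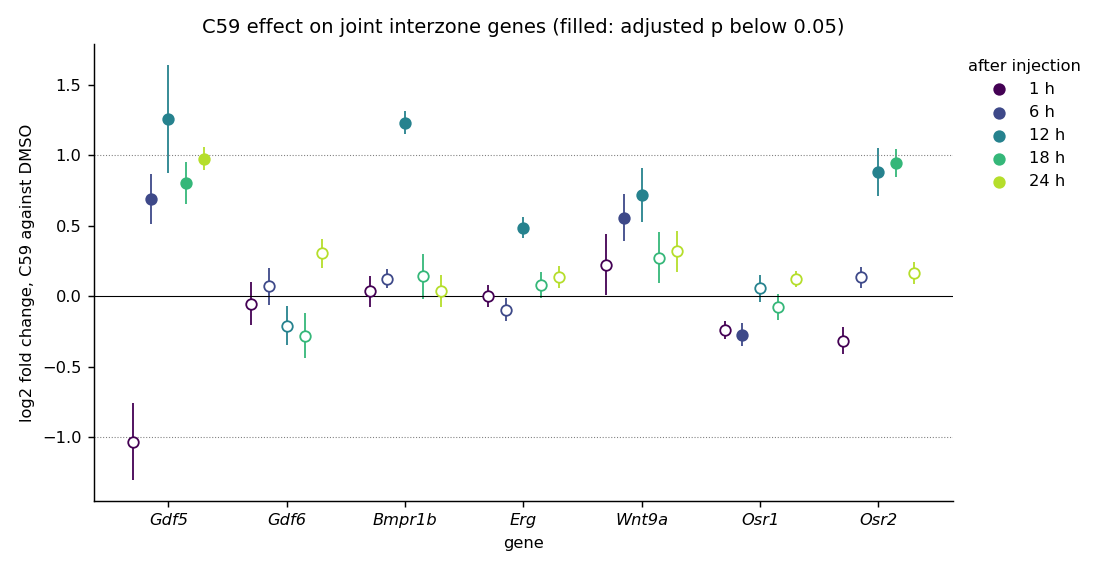
Log2 fold change of C59 against DMSO with its standard error for each joint interzone gene at 1, 6, 12, 18 and 24 h (colors), filled where the edgeR adjusted p was below 0.05, with dotted lines at the second threshold of 1 in either direction. *Gdf5* is filled at every time from 6 h on, *Osr2* at 12 h and 18 h, *Wnt9a* at 6 h and 12 h, *Bmpr1b* and *Erg* at 12 h only, *Osr1* at 6 h only (downward), and *Gdf6* at none.

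Other genes of the joint program were followed as a list of 15, of which 14 were tested at each time and *Prg4*, the gene of the joint lubricant, was too low. At 12 h 8 of the 14 rose and 2 fell, with a median log2 fold change of 0.31, while of all genes 47.5% passed, 22.0% upward. Past both thresholds were *Nog*, a secreted BMP antagonist needed for joint formation (log2 fold change 1.62), and *Jun*, a factor acting upstream of joint WNT genes (1.02). *Cd44*, a hyaluronan receptor, was the lowest (-0.78). *Nog* had 8.18 to 12.4 CPM in C59 and 2.09 to 4.06 CPM in DMSO libraries, without overlap.

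At 6 h 4 of the 14 rose and 2 fell, the highest being *Chrd*, another BMP antagonist (0.66), and the only one past both thresholds *Has2*, a hyaluronan synthase (-1.04). At 18 h *Wnt4* (0.85) and *Jun* (0.97) rose, and at 24 h *Wnt4* (0.58), *Nog* (0.50) and *Jun* (0.40) rose, with no gene of the list falling. In normal development, from DMSO 1 h to 24 h, 12 of the 14 rose and 1 fell, from *Nog* (4.004) to *Wnt16* (-1.17). At 1 h none passed in edgeR. Of all genes tested, 19.6% passed at 6 h, 7.08% at 18 h, 6.44% at 24 h and 59.3% in normal development (30.2% upward).

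Cartilage condensation genes changed from 6 h on. The counts of this paragraph stand beside 19.6% of all genes passing at 6 h, 47.5% at 12 h (22.0% upward), 7.08% at 18 h and 6.44% at 24 h. At 6 h 3 of the 8 tested rose and 1 fell, with a highest log2 fold change of 0.72. At 18 h 4 of the 11 tested rose and none fell. At 12 h 7 of 11 rose and none fell, with 5 past both thresholds, among them *Matn1* (1.81), *Sox6* (1.56), *Sox5* (1.20) and *Sox9* (1.18), the last being the master factor of chondrogenesis. Their summed level was 2177 to 2977 CPM in C59 and 1185 to 1268 CPM in DMSO libraries. *Matn1* was low at 12 h and spread widely, with 0.966 to 4.85 CPM in C59 and 0.557 to 0.735 CPM in DMSO libraries. At 24 h 4 of the 11 rose, *Matn1* past both thresholds (1.05), and *Sox9* had a log2 fold change of -0.04. Of 8 connective tissue genes tested at 12 h 3 rose and 3 fell, *Pdgfra* having the highest value (0.56) and *Twist2* the lowest (-1.13). Ectoderm genes, as a check for other tissue, were also higher at 12 h (5 of 7, summed level 325 to 440 CPM against 234 to 264 CPM), whereas of 5 trunk and body wall genes tested none rose and 1 fell. Of 3 neural crest and Schwann precursor genes tested at 12 h 2 rose, *Erbb3* (1.23) past both thresholds, with a summed level of 83.5 to 111 CPM in C59 against 36.5 to 50.7 CPM in DMSO libraries. Of 4 limb mesenchyme genes 1 rose and 3 fell, *Twist1* (-1.19) and *Prrx2* (-1.11) past both thresholds, and their summed level was lower in C59 (1057 to 1126 CPM against 1543 to 1606 CPM). Of 6 muscle precursor genes 2 rose and 3 fell, *Myog* (1.56) upward and *Pax3* (-2.04) and *Lbx1* (-1.15) downward past both thresholds, while their summed levels overlapped. Of 4 erythroid genes 1 rose. The part of any of these cell types in the changes of the joint interzone genes was not tested.

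The C59 buds at 12 h were also compared with DMSO buds at 24 h, to ask how far the joint interzone genes resembled older controls. In this comparison 5 of the 7 genes differed, as did 38.9% of the 13603 genes tested, 2 higher (18.8% of all genes were) and 3 lower (20.1%). *Bmpr1b* (log2 fold change 0.64 ± 0.08) and *Osr2* (1.05 ± 0.16) were above the older control level. *Gdf6* (-1.25 ± 0.11), *Osr1* (-0.65 ± 0.05) and *Erg* (-0.56 ± 0.06) were below it, and *Gdf6* and *Osr2* were past both thresholds (4.76% of all genes). For *Gdf5* (-0.55 ± 0.26, edgeR adjusted p 0.12) and *Wnt9a* (0.16 ± 0.13, edgeR adjusted p 0.342) no difference was detected, and without C59 12 h replicate 1 *Gdf5* was lower in C59 buds as well (log2 fold change -0.99). In 5 of the 7 the groups did not overlap, as in 51.3% of all genes. These libraries also enter the comparisons above.

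Between time points, the change of the C59 effect passed for 3 of the 7 genes from 6 h to 12 h (18.1% of all genes tested), for 2 from 12 h to 18 h (8.49%) and for 1 from 18 h to 24 h (6.96%).

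For each joint interzone gene the genes of most similar course were found among 12773 genes, by the mean absolute difference of group mean log2 CPM over the 10 groups after centring. For *Gdf5* these were *Hic1* (0.28 on the log2 scale, in a gene that spans 5.12) and *Arpp21* (0.30). For *Gdf6* they were *Rerg* (0.13) and *Pcolce2* (0.16), for *Bmpr1b* *Mapre3* and *Sema3b* (0.10 each), and for *Erg* *Tmem246* and *Cap2* (0.07 each). *Wnt9a* was closest to *Aplp1* (0.11) and *Ebf3* (0.12), *Osr1* to *Pcdh10* and *Tnfrsf11b* (0.10 each), and *Osr2* to *Klc3* and *Vcan* (0.15 each), *Vcan* being a large proteoglycan of condensing mesenchyme. No joint interzone gene was among the nearest of another.

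Promoter sequences, 250 bases before to 50 bases after an annotated start, were taken from RefSeq (GRCm38.p6) for *Bmpr1b* (3 windows), *Erg* (3 windows) and *Wnt9a* (1 window). They were searched on both strands for CTTTGAT and CTTTGAA, spellings of the TCF/LEF core through which β-catenin reaches DNA. Other spellings of this core were not searched. None of the 7 windows held a match, beside 7.36% of 19174 promoter windows of protein-coding autosomal genes, and no match says only that these letters are absent from these windows. A window is shown for *Bmpr1b*, the gene with the clearest response at 12 h, and one for the WNT ligand *Wnt9a*, both on the coding strand. They are without capitals because neither searched spelling was found, which does not exclude other spellings.
Bmpr1b, chr3:141931539-141931838, minus strand: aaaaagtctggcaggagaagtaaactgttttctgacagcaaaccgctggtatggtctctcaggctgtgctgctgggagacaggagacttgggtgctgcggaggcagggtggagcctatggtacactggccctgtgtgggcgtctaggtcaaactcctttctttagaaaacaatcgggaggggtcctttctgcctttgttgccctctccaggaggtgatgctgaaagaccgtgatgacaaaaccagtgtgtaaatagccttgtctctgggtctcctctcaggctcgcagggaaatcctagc
Wnt9a, chr11:59306680-59306979, plus strand: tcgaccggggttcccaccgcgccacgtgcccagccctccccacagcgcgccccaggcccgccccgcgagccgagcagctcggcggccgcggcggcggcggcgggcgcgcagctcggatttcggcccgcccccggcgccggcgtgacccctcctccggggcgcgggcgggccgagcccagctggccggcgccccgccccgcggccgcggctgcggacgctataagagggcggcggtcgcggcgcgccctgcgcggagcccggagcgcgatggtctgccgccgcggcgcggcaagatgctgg
The *Bmpr1b* window has a GC content of 53.0% and the *Wnt9a* window one of 83.3%. All 3 *Bmpr1b* windows lie inside the annotated gene, and none covers its outermost GENCODE start at 142169425. Gene-level counts do not show which *Bmpr1b* start was used.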

How the data were processed

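PolyA RNA was sequenced from 30 forelimb bud libraries. The authors trimmed reads with Cutadapt (version 1.16) and mapped them to mm10 with STAR (2.7.0e) and a custom annotation. The deposited counts are raw fragment counts per gene from STAR, autosomes only. The deposited FPKM values were computed by the authors with Cufflinks (2.2.1), unstranded, with multi-read and bias correction. No replicates were pooled. The strand of counting is not given in the sources used here.

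Protein-coding genes (GENCODE M21) were compared in R 4.3.3 by the quasi-likelihood test of edgeR 4.0.16 (TMM factors, two-sided), after low genes were removed by filterByExpr at min.count 10 and min.total.count 15. Thresholds were a Benjamini-Hochberg adjusted p of 0.05 and a log2 fold change of 1. A self-test on counts simulated for C59 against DMSO at 12 h, with the same dispersion for all genes, was passed. Its condition covered the detection of large changes and the bias of estimates. It did not cover the detection of small changes or the number of false calls. Alternatives were DESeq2 1.42.0, its size factors in edgeR, upper-quartile factors, no filter, all 30 libraries, a replicate block, limma 3.58.1 on log2(FPKM + 1) and log2(FPKM + 0.1), and leaving out each library. The genes described and the lists beside them were chosen with earlier results of these data known. Of each list up to 4 genes were named per comparison, those past both thresholds first and otherwise the highest and lowest. Genes named outside that rule (*Bmpr1a*, *Cdh5*, *Wnt4* at 18 h, and at 24 h *Sox9*, *Nog* and *Jun*) and levels given for *Nog* were chosen after their values were seen. Replicates come from separate pairs of limb buds. Per the methods, 3 or more litters contributed to each condition and time point. The litter of each library was not used here, and p-values measure only the spread between these samples.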

Additional observations from a re-analysis of the deposited data

Results flagged for a closer look

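The effect of C59 differed between neighbouring time points for 3 joint interzone genes (edgeR interaction contrasts on 12 libraries, Benjamini-Hochberg adjusted over all genes). From 6 h to 12 h it increased for *Bmpr1b* by 1.10, for *Osr2* by 0.74 and for *Erg* by 0.58 on the log2 scale. From 12 h to 18 h the change was -1.09 for *Bmpr1b* and -0.40 for *Erg*, and from 18 h to 24 h it was -0.79 for *Osr2*. In the contrast of 6 h to 12 h, treatment and embryo sex cannot be told apart among the 6 h libraries. The contrast of 12 h to 18 h shares its 12 h libraries with the one before it. Groups of 3 libraries were too small for a check of single outlying libraries.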

How the results depend on the processing

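Of the 70 log2 fold changes tested for the 7 genes none that passed the threshold turned its direction under any alternative. Without a filter on low counts 2 genes passed at 1 h (*Gdf5*, past both thresholds, so 1 there, and *Osr2*), instead of none. At 6 h the count of 3 became 1 with all 30 libraries in the fit and 1 with limma on log2(FPKM + 0.1). Past both thresholds at 12 h, 1 gene instead of 2 was left with DESeq2 and with limma on log2(FPKM + 1). The latter also left 0 of 2 for C59 at 12 h against DMSO at 24 h. For the change of the effect from 12 h to 18 h 1 gene instead of 2 passed with no filter and with both limma settings, and from 18 h to 24 h 2 instead of 1 with DESeq2 and with all 30 libraries. The causes were not tested.

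Leaving out one library at a time gave 0 to 3 genes past the threshold at 6 h, 1 to 2 at 18 h, 1 to 3 past both thresholds at 12 h and 0 to 1 at 24 h. The range was 1 to 2 past both thresholds for C59 at 12 h against DMSO at 24 h, and 1 to 2 passed for the changes from 12 h to 18 h and from 18 h to 24 h. The reversed values were all of genes that had not passed. With limma they were -0.016 and -0.018 for *Erg* at 1 h, and -0.0030 and -0.0077 for *Osr2* from 12 h to 18 h. Leaving out a library gave ranges across 0 of -0.057 to 0.039 for *Erg*, -0.071 to 0.18 for *Bmpr1b* and -0.16 to 0.085 for *Gdf6* at 1 h, -0.011 to 0.14 for *Gdf6* at 6 h, -0.016 to 0.18 for *Osr1* at 12 h and -0.040 to 0.18 for *Bmpr1b* at 24 h. For changes of the effect they were -0.0087 to 0.42 for *Wnt9a* from 6 h to 12 h, and -0.13 to 0.24 for *Osr2*, -0.91 to 0.00014 for *Gdf5* and -0.19 to 0.027 for *Gdf6* from 12 h to 18 h. From 18 h to 24 h they were -0.025 to 0.13 for *Erg*, -0.12 to 0.16 for *Wnt9a* and -0.27 to 0.032 for *Bmpr1b*.

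Samples with the same replicate number did not deviate together at every number (correlations from -0.169 to 0.131 within time points). At 12 h each of the 3 correlated best with its own number. With 3 samples per group these correlations cannot decide whether samples of the same number belong together. With the replicate number as a block the counts of genes at the 5 time points were 0, 3, 5, 2 and 1 as without it, and from 12 h to 18 h 1 gene instead of 2 passed, *Erg* having a change of -0.40 and an adjusted p of 0.0648.

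Depth limits *Gdf5* most, at 17 to 47 counts per library at 1 h.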
